A study of Mus musculus with 16 samples.

Results

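The effect common to the loss of HP1α and the loss of HP1γ was measured by RNA-Seq in memory CD4+ T cells as the KO minus WT difference averaged over both knockout lines. All 16 samples of the series entered this comparison, 8 KO and 8 WT, with 4 samples in each of 4 groups. HP1α KO (Hp1a-/-) and WT (Hp1a+/+) littermates came from intercrosses of Hp1a+/- mice, whose floxed Hp1a allele had been excised with the broadly active CMV-cre transgene. HP1γ KO mice were homozygous for a floxed Hp1g allele and carried Cd4-cre, a Cre transgene driven in the T lineage, and their WT littermates had the floxed alleles without Cre. Cre and the loss of HP1γ therefore cannot be told apart in that line, whereas in the HP1α line every tissue lacked the protein. The mice were sex-matched littermates of 6 to 12 weeks, on a mixed 129/Sv and C57BL/6 background. For its sequencing the study reports the use of males. The cells were sorted from spleen as CD4+CD25low/-CD62L-CD44high. A gene was called when its average effect had an adjusted p under 0.05. It is termed shared here when, in addition, it moved the same way in each line with an unadjusted p under 0.05 there.

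HP1 proteins bind the methylated lysine 9 of histone H3 through a chromodomain and recruit further factors through a chromoshadow domain, by which they help to keep heterochromatin compact and silent. The 3 mammalian isoforms, HP1α, HP1β and HP1γ, are encoded by Cbx5, Cbx1 and Cbx3. HP1α and HP1β are best known from pericentromeric heterochromatin, and HP1γ is also found in euchromatin and along transcribed genes. In T cells, the same pathway of H3K9 methylation is known for silencing genes of alternative helper fates and transposable elements.

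Total counts lay between 26694002 and 39554620 per KO sample and between 27515009 and 40199600 per WT sample, and did not differ between them by more than their spread (exact permutation test within lines, two-sided, p = 0.996). Cd3e was at 256 to 367 CPM and Cd4 at 991 to 1397 CPM in every sample, whereas Ms4a1 of B cells did not exceed 1.72 CPM and Csf1r of macrophages 20.7 CPM. CPM are counts scaled to the library size, which TMM normalization adjusts for all values except these markers. Nothing in the labels says how many animals stand behind a sample, so p-values measure the spread between these samples.

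The targeted genes were examined first, over all of their exons, including those outside the deleted part. Cbx5 in HP1α KO stood at 28.7, 27.6, 23 and 29 CPM, and in the WT littermates at 37.8, 54, 35.7 and 33.8 CPM. The groups did not overlap, with means of 27.1 ± 2.77 and 40.3 ± 9.28 CPM (SD, n = 4 each). In that line KO differed from WT by -0.57 on the log2 scale (standard error 0.16, unadjusted p = 0.00203), so that most of the transcript signal remained. Cbx3 in HP1γ KO stood at 50.3, 46.3, 45.9 and 47.5 CPM, and in the WT littermates at 92.5, 90.2, 73.4 and 82 CPM, again without overlap. Its log2 fold change there was -0.83 (standard error 0.11, unadjusted p = 1.08e-06). In the line in which it was not targeted, Cbx3 had a log2 fold change of -0.14 (unadjusted p = 0.208) and Cbx5 one of -0.30 (unadjusted p = 0.0731), neither past the threshold. Cbx1, the gene of HP1β, had -0.09 on average (adjusted p = 0.789).

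Few genes moved the same way in both lines. Of 15776 genes tested, 26 were higher and 12 lower in KO on average (0.241% of all tested genes, 0.165% higher and 0.0761% lower). Of these, 17 higher and 2 lower also had an absolute log2 fold change above 1 (0.108% and 0.0127%). The shared genes numbered 19, with 13 higher (0.0824% of all tested genes) and 6 lower (0.038%), 0.12% in all, and their average changes ranged from 1.29-fold to 23.3-fold. An unadjusted p under 0.05 was reached by 4.26% of all genes in the HP1α line and by 13.5% in the HP1γ line. The other 19 called genes missed the threshold in the HP1α line, and none missed it in the HP1γ line. Over all genes the lines had little in common: 50.2% had the same direction in both, and the Pearson correlation of the line effects across genes, which are not independent replicates, was 0.058. A stricter rule, which takes for each gene the larger of its 2 one-line p-values, called 0 genes in edgeR (smallest adjusted p = 0.832). That larger p was under 0.05 unadjusted, with the same direction in both lines, for 67 genes (0.425% of all tested genes), 36 higher and 31 lower. DESeq2 called 1 gene by that rule.

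**Figure D1:**
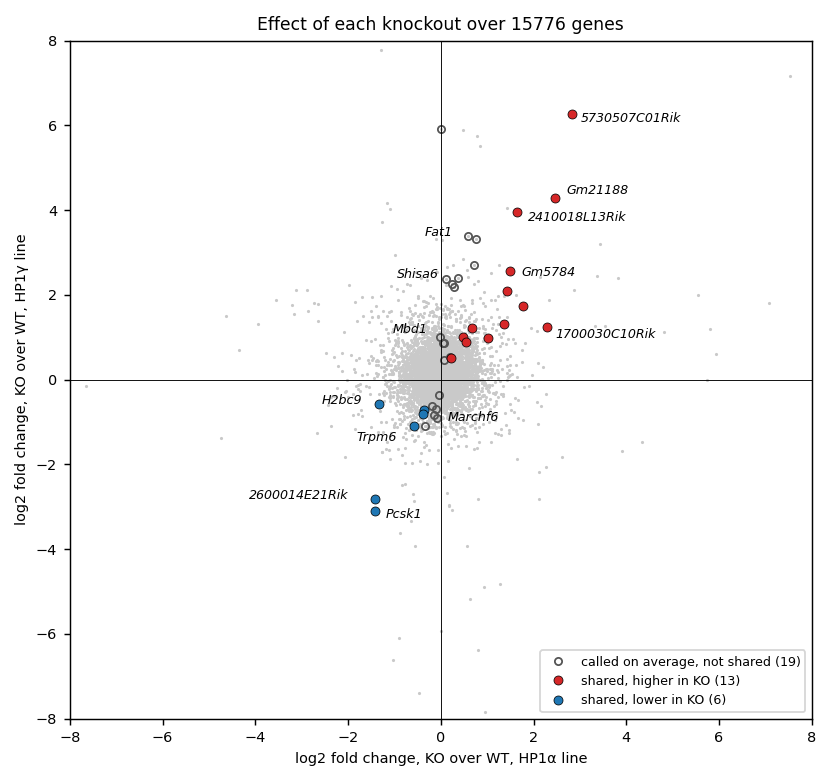
Log2 fold change of KO over WT in the HP1α line (horizontal axis) against that in the HP1γ line (vertical axis) for 15776 genes, with the 13 shared genes that were higher in red, the 6 shared genes that were lower in blue and the other 19 called genes as open circles. Outside the axes lie 6 of the grey genes. The shared genes lie along the diagonal, mostly further out on the HP1γ axis, and most of the open circles lie near the vertical line at 0.

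KO and WT samples did not overlap in either line, with the same direction in both, for 23 genes (0.146% of all tested genes, 0.0951% with KO above WT and 0.0507% with KO below), of which 11 were shared genes. Among the 19 shared genes, KO and WT samples did not overlap in the HP1α line for 13 and in the HP1γ line for 17, against 2.99% and 6.92% of all genes. These counts follow in part from the rule that chose the genes. The effect was larger in the HP1γ line for 14 of the 19. The difference between the lines had an unadjusted p under 0.05 for 6 of the shared genes and an adjusted p under 0.05 for 0 of them. Of the 19, 7 stayed called under each of the 12 other ways of processing that tested them and with each of the 16 samples left out in turn. Leaving out 1 sample left 5 to 13 shared genes that were higher and 3 to 8 that were lower. The number that were higher fell by more than 1.5 times without any single sample other than HP1α KO 1, HP1α WT 4, HP1γ KO 1 or HP1γ KO 3, with the lowest value of 5 without HP1α KO 2. The 7 genes called wherever they were tested were 5730507C01Rik, 2410018L13Rik, Gm21188 and Gm5784, which were higher, and Trpm6, Pcsk1 and 2600014E21Rik, which were lower. Only Trpm6 was tested in all 12 other ways of processing. The other 3 of the chromosome 12 stretch were tested in 10, Pcsk1 in 9, and Gm21188 and 2600014E21Rik in 8.

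A stretch of chromosome 12 held 6 of the 13 shared genes that were higher and none of those that were lower. Its ends are set by shared genes, so these are among the genes counted in it. It runs over 4.5 Mb, at chr12:18564407-23060285 of GRCm39, and holds 22 tested genes, 7 of them called higher and 0 called lower (0.165% and 0.0761% of all genes tested). Of the 22, 13 were higher in both lines and 2 lower in both, against 24.8% and 25.4% of all genes. The median log2 fold change in the stretch was 1.01 on average, 0.68 in the HP1α line and 1.11 in the HP1γ line, against -0.00 on average over all genes tested. In its middle lie 5 neighbours, from Itgb1bp1 to Ywhaq, whose averages were between -0.09 and 0.01, among them Adam17 (0.01), the protease that sheds membrane-bound TNF.

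Several of these genes start behind similar DNA. The 300 bases before the first annotated base of 5730507C01Rik were compared with the same window of 56015 genes, and 12 other genes had a window at least 75% identical over at least 100 bases. The aligned parts of these 12 windows were 79.4% to 89.3% identical to it. All 13 genes lie on chromosome 12. Of these, 9 were tested, 9 of 9 were higher in both lines, and 5 were called higher and 0 lower, against the same shares of all genes as for the stretch. Their median log2 fold change on average was 1.76. These numbers include 5730507C01Rik itself, the shared gene with the smallest p, from which the comparison started. Asap2, Gm30124 and Gm21989 start at 21040460, 21040537 and 21040539 on the plus strand, so that their windows overlap. Of these, Asap2 and Gm30124 were tested. Some genes of the family also share transcript sequence with other genes, so that its members may not be separate observations. The comparison was made after the leading genes had been seen, and no test was made of it. The windows of 4 of the 5 called genes are shown because their likeness is a feature the choice of genes did not use. They were read from GRCm39 in the direction of each gene, and capitals mark the bases that aligned to the window of 5730507C01Rik, whose own window is therefore in capitals throughout.
5730507C01Rik, chr12:18564107-18564406, plus strand: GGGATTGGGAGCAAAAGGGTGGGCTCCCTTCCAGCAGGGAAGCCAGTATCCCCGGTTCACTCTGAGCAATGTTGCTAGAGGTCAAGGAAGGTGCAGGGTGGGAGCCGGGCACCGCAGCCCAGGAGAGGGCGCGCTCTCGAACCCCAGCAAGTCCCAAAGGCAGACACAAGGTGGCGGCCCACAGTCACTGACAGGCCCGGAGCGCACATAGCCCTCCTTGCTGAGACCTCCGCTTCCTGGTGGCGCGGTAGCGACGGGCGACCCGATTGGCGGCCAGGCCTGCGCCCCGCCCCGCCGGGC
Gm5784, chr12:19437510-19437809, plus strand: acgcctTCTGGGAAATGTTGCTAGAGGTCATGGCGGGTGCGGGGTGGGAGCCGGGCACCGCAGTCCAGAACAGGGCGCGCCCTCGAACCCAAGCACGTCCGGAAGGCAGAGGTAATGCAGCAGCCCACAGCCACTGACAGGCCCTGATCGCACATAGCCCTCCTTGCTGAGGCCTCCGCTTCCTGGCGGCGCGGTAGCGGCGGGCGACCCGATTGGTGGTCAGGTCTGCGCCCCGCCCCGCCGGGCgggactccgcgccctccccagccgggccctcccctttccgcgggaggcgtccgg
1700030C10Rik, chr12:20865840-20866139, minus strand: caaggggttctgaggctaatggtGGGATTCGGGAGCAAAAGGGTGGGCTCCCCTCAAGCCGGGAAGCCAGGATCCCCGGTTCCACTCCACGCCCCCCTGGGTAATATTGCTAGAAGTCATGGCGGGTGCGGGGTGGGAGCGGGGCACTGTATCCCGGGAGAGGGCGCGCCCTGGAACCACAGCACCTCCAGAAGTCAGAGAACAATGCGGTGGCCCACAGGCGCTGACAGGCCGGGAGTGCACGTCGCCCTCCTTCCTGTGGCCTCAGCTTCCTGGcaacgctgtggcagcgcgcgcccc
2410018L13Rik, chr12:23060286-23060585, minus strand: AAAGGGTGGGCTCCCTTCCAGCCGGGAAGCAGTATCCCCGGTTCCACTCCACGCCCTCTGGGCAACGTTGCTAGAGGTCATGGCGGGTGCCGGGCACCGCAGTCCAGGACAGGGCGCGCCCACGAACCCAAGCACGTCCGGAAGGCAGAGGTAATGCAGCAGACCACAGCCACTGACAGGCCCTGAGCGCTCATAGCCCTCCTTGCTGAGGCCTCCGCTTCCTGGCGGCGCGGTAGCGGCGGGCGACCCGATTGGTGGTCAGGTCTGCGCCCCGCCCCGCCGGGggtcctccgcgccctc
The windows hold 21, 31, 19 and 27 CpG in the order printed, against a median of 9 in the windows of tested genes, and 22.6% of those hold 19 or more. Over all 13 shared genes that were higher the median was 4 CpG, below that of tested genes. Whether these windows overlap other annotated genes was not tested. CpG was counted as the letters CG on the printed strand. The match of letters says nothing of which factors bind there.

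5730507C01Rik (chr12:18564407-18615852), annotated as protein-coding, had the largest change of all called genes. Its values were 1.58, 2.04, 3.06 and 1.93 CPM in HP1α KO and 0.25, 0.151, 0 and 0.79 CPM in WT. For the HP1γ line it was at 8.53, 8.31, 8.98 and 9.29 CPM in KO and at 0.194, 0.102, 0.0304 and 0.122 CPM in WT. Every KO sample was above every WT sample of its line, and the HP1γ KO samples (8.78 ± 0.443 CPM, SD, n = 4) were above the HP1α KO samples (2.15 ± 0.638 CPM, SD, n = 4). The 0 in the third WT sample of the HP1α line allows a level of up to 0.110 CPM, which 3 counts would give there (counting error only). Its log2 fold change was 4.54 on average (standard error 0.40, adjusted p = 2.48e-05). Adjusted p-values of single genes are those of the edgeR quasi-likelihood fit after Benjamini-Hochberg adjustment throughout. In the HP1α line it was 2.83 (unadjusted p = 5.27e-05) and in the HP1γ line 6.26 (unadjusted p = 1.18e-08). For the difference between the lines the adjusted p was 0.219, with 6.33e-04 before adjustment in edgeR. The longest transcript of this gene shares at least 150 bases at 98% identity or more with 8 other genes, so that the assignment of its reads among these copies is uncertain.

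2410018L13Rik (chr12:23003996-23060285), a long non-coding RNA gene, was at 1.58, 1.05, 2.12 and 1.55 CPM in HP1α KO and at 0.344, 0.428, 0.257 and 0.979 CPM in WT. In the HP1γ line it was at 3.56, 3.27, 3.04 and 7.06 CPM in KO and at 0.259, 0.153, 0.243 and 0.426 CPM in WT. No KO sample of either line reached down to its WT samples, although the fourth WT sample of the HP1α line was close to the lowest KO sample. The log2 fold change was 2.80 on average (standard error 0.30, adjusted p = 1.62e-04), with 1.64 in the HP1α line and 3.97 in the HP1γ line. The longest transcript of 2410018L13Rik shares sequence with 7 other genes at the limits given above, so that the assignment of its reads is uncertain too.

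Gm5784 (chr12:19437810-19483082), also a long non-coding RNA gene, was at 1.08, 0.795, 1.85 and 1.16 CPM in HP1α KO and at 0.313, 0.277, 0.184 and 0.948 CPM in WT. Its values were 3.45, 2.59, 2.91 and 3.77 CPM in HP1γ KO and 0.357, 0.612, 0.486 and 0.669 CPM in WT. The groups were apart in the HP1γ line and overlapped in the HP1α line through the fourth WT sample alone. The average was 2.03 on the log2 scale (standard error 0.29, adjusted p = 0.00275).

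1700030C10Rik (ENSMUSG00000099759, chr12:20854368-20865839) was one of the few shared genes with the larger effect in the HP1α line. This long non-coding RNA gene was at 8.86, 7.32, 8.86 and 10.7 CPM in HP1α KO and at 0.938, 0.857, 1.47 and 4.11 CPM in WT. In the HP1γ line it was at 2.46, 3.27, 3.5 and 9.65 CPM in KO and at 2.79, 2.63, 1.37 and 1.25 CPM in WT. The HP1α groups were apart, whereas the HP1γ groups overlapped and the fourth KO sample stood far above the other HP1γ KO samples. Log2 fold changes were 2.28 in the HP1α line, 1.24 in the HP1γ line and 1.76 on average (standard error 0.34, adjusted p = 0.0422). With 1 sample left out it stayed called in 2 of 16 cases, with adjusted p-values of 0.00323 to 0.107. A second entry of the same symbol (ENSMUSG00000091071), which overlaps it, had 2.11 on average and was not called (adjusted p = 0.138).

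Gm46339 (chr12:19351654-19355192) and 3110053B16Rik (chr12:20924126-20927072), a transcribed pseudogene, complete the shared genes of the stretch, and neither is among the 13 genes with a window like that of 5730507C01Rik. Gm46339 was at 1.03, 0.827, 0.883 and 0.979 CPM in HP1α KO, 0.188, 0.202, 0.331 and 0.663 CPM in WT, 1.1, 1.43, 1.21 and 1.62 CPM in HP1γ KO and 0.421, 0.459, 0.304 and 0.0608 CPM in WT. Its log2 fold change was 1.76 on average (standard error 0.32, adjusted p = 0.0283). The values of 3110053B16Rik were 2.23, 1.94, 1.77 and 1.7 CPM in HP1α KO, 1.16, 0.907, 0.588 and 1.07 CPM in WT, 1.4, 1.53, 2.12 and 3.08 CPM in HP1γ KO and 0.778, 1.22, 0.912 and 1.22 CPM in WT. It had nearly the same log2 fold change in both lines, 1.03 and 0.98, with an adjusted p of 0.0422 on average. Neither gene had overlapping groups in either line. Beyond the stretch, 9030624G23Rik (chr12:24062271-24147332), whose window is of the same kind, was called on average (1.72, adjusted p = 0.0331) with 0.73 in the HP1α line (unadjusted p = 0.112), so that it was not shared.

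**Figure D2:**
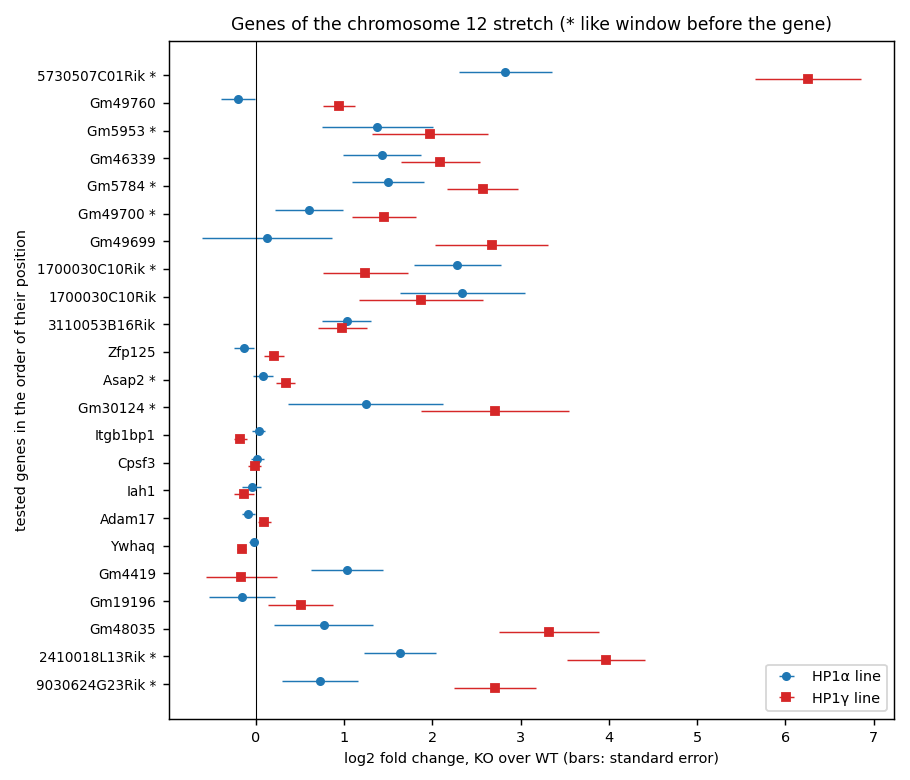
Log2 fold change of KO over WT in the HP1α line (blue circles) and the HP1γ line (red squares) for the 22 tested genes of the chromosome 12 stretch and for 9030624G23Rik, in the order of their position, with bars of 1 standard error and asterisks on the genes whose window resembles that of 5730507C01Rik. The 9 genes with an asterisk are above 0 in both lines, and the genes from Itgb1bp1 to Ywhaq are close to 0.

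Among the 4 higher genes that were called at every setting that tested them, Gm21188 (chr13:120496140-120513730) lies apart from that stretch. This gene is protein-coding, and the GENCODE annotation names it Anxa2r1. Only 8 of the 12 other ways of processing tested it. It was at 0.25, 0.127, 0.471 and 0.438 CPM in HP1α KO and at 0, 0.0252, 0.184 and 0.0316 CPM in WT, and at 1.9, 3, 2.16 and 2.44 CPM in HP1γ KO and 0.13, 0.102, 0.0912 and 0.152 CPM in WT. The level was by far the highest in HP1γ KO, and in the HP1α line the lowest KO sample was under the highest WT sample. Log2 fold changes were 2.47 in the HP1α line and 4.29 in the HP1γ line, with 3.38 on average (standard error 0.40, adjusted p = 6.69e-04). The HP1α value rests on 47 counts in all 4 KO samples and 7 in all 4 WT samples. Its transcript shares sequence with 3 other genes at the limits given above, which leaves the source of its reads uncertain.

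The shared protein-coding genes that were higher and had no Gm or Rik symbol were Pld2, Sec14l2, Rasgrp4 and Atp2a1. Pld2, phospholipase D2, which makes phosphatidic acid from phosphatidylcholine, was at 15.8, 15.2, 14.8 and 13.4 CPM in HP1α KO and 14.2, 11.9, 13 and 11.7 CPM in WT, and at 15.7, 14.6, 15.4 and 16.6 CPM in HP1γ KO and 11.1, 10.8, 9.97 and 11.9 CPM in WT. Its change was the smallest of the shared genes, 0.37 on average (standard error 0.06, adjusted p = 0.0172), and the HP1α groups overlapped. Sec14l2, which encodes a lipid-binding protein of the SEC14 family, was at 1.25, 1.43, 1.65 and 1.52 CPM in HP1α KO and 1, 0.756, 1.21 and 0.727 CPM in WT, and at 2.69, 3.1, 1.57 and 2.62 CPM in HP1γ KO and 1.1, 1.07, 1 and 1.09 CPM in WT. KO was above WT without overlap in both lines, with 0.94 on average (standard error 0.16, adjusted p = 0.0224).

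Rasgrp4, an exchange factor that activates Ras and is known from mast cells, was at 5.93, 6.65, 6.09 and 8.14 CPM in HP1α KO and 4.25, 3.33, 5.91 and 5.78 CPM in WT. Its values were 7.77, 8.99, 5.78 and 6.85 CPM in HP1γ KO and 4.12, 4.33, 3.46 and 2.77 CPM in WT. The groups were apart in both lines, by a narrow margin in the HP1α line, and the average was 0.74 (standard error 0.14, adjusted p = 0.0397). Atp2a1, the calcium pump SERCA1 of the sarcoplasmic reticulum of fast muscle, was at 2.5, 2.86, 2.33 and 2.42 CPM in HP1α KO and 2.19, 0.932, 1.95 and 1.86 CPM in WT. It was at 6.37, 5.69, 5.55 and 6.7 CPM in HP1γ KO and 2.98, 3.42, 3.37 and 3.37 CPM in WT, again with the groups apart, and the average was 0.72 (standard error 0.14, adjusted p = 0.0422). Its level also differed between the WT groups of the lines, so that the WT samples of the HP1γ line were above the HP1α KO samples.

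The remaining shared genes that were higher were non-coding and low. Gm51802 was at 0.5, 0.541, 0.442 and 0.464 CPM in HP1α KO, 0.156, 0.151, 0.294 and 0.158 CPM in WT, 0.758, 0.715, 0.817 and 1.8 CPM in HP1γ KO and 0.389, 0.357, 0.638 and 0.274 CPM in WT. KO and WT were apart in both lines, and the average of 1.33 was only just called (adjusted p = 0.0494). ENSMUSG00000121218, which the GENCODE annotation names Gm57011, was at 0.425, 0.191, 0.206 and 0.258 CPM in HP1α KO, 0.0625, 0.0756, 0.11 and 0.0632 CPM in WT, 0.493, 0.34, 0.523 and 0.539 CPM in HP1γ KO and 0.0324, 0.153, 0.122 and 0.243 CPM in WT. Its log2 fold change was nearly the same in both lines, 1.77 and 1.75 (adjusted p of the average = 0.034).

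**Figure D3:**
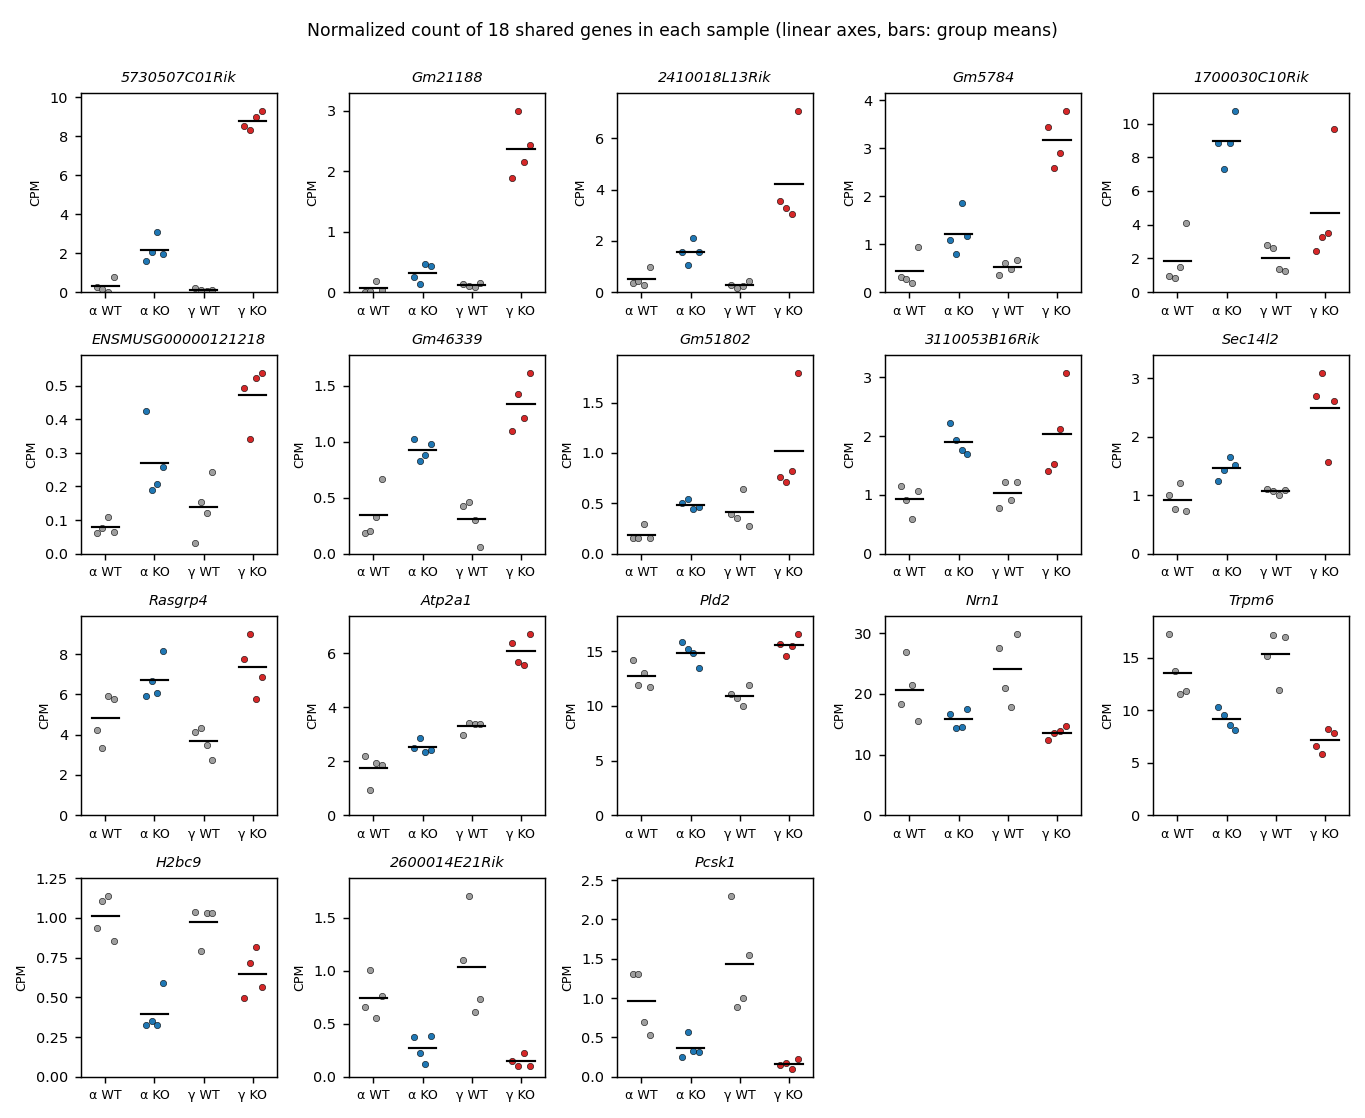
Normalized count (CPM, linear vertical axes from 0) of 18 shared genes in each of the 16 samples, with WT samples in grey, HP1α KO in blue and HP1γ KO in red, and bars for group means. The first 13 panels hold the genes higher in KO, from the largest average change to the smallest, and the last 5 those lower in KO. 5730507C01Rik is at 1.58 to 3.06 CPM in HP1α KO and at 8.31 to 9.29 CPM in HP1γ KO.

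Of the 6 shared genes that were lower, 3 lie far apart on chromosome 13. Trpm6, which encodes a magnesium-permeable channel fused to a kinase, had the smallest adjusted p of them. It was at 10.3, 9.54, 8.62 and 8.11 CPM in HP1α KO and 17.3, 13.7, 11.6 and 11.9 CPM in WT, and at 6.64, 5.86, 8.23 and 7.88 CPM in HP1γ KO and 15.2, 17.2, 11.9 and 17 CPM in WT. The highest KO sample of both lines was below the lowest WT sample of both. It fell by 0.83 on the log2 scale on average (standard error 0.11, adjusted p = 0.00137), with -0.57 in the HP1α line (unadjusted p = 0.00143) and -1.10 in the HP1γ line (unadjusted p = 1.73e-06).

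Pcsk1, the proprotein convertase that cleaves prohormones in endocrine cells, was at 0.25, 0.573, 0.324 and 0.309 CPM in HP1α KO and 1.31, 1.31, 0.698 and 0.537 CPM in WT. For the HP1γ line the values were 0.152, 0.17, 0.098 and 0.231 CPM in KO and 2.3, 0.892, 1 and 1.55 CPM in WT. The HP1γ groups were far apart and the HP1α groups met at a single pair of samples. The average of -2.25 on the log2 scale (standard error 0.30, adjusted p = 0.00173) was the largest decrease among called genes. The long non-coding RNA gene 2600014E21Rik (chr2:74969187-75148164) was at 0.375, 0.223, 0.118 and 0.386 CPM in HP1α KO, 0.656, 1.01, 0.551 and 0.758 CPM in WT, 0.152, 0.102, 0.229 and 0.103 CPM in HP1γ KO and 1.1, 1.71, 0.608 and 0.729 CPM in WT. The groups were apart in both lines, with -2.11 on average (standard error 0.31, adjusted p = 0.00384).

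Nrn1, neuritin, a membrane-anchored protein known from neurons and regulatory T cells, was at 16.7, 14.4, 14.6 and 17.4 CPM in HP1α KO and 18.4, 26.9, 21.5 and 15.5 CPM in WT, and at 12.4, 13.5, 13.9 and 14.7 CPM in HP1γ KO and 27.6, 20.9, 17.9 and 29.8 CPM in WT. The fourth WT sample of the HP1α line fell among the KO samples, and the HP1γ groups were apart. The average was -0.60 (standard error 0.12, adjusted p = 0.0422). H2bc9, one of the clustered genes of histone H2B, was at 0.325, 0.35, 0.324 and 0.592 CPM in HP1α KO and 0.938, 1.11, 1.14 and 0.853 CPM in WT, and at 0.493, 0.715, 0.817 and 0.565 CPM in HP1γ KO and 1.04, 0.79, 1.03 and 1.03 CPM in WT. Here the effect was larger in the HP1α line, -1.33 against -0.58, with -0.96 on average (adjusted p = 0.045).

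Shared genes stood at low to moderate levels. By mean TPM over the 16 samples, which allows for transcript length, the highest were Nrn1 at 23.1, Pld2 at 7.92 and 1700030C10Rik at 4.27, and the lowest were Pcsk1 at 0.313 and Gm46339 at 0.335. Of the 19, 10 had at least 10 counts in every sample. By symbol, 9 of the 19 are predicted or uncharacterized genes (Gm or Rik), although the GENCODE annotation names Gm21188 Anxa2r1. Transcript sequence is shared with at least 1 other gene, at the limits given above, by 11 of the 19. None of the shared genes lies within 10 Mb of Cbx5 or of Cbx3.

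An average can be carried by 1 line, and the called genes that were not shared show this. The 10 with the smallest p were Mbd1, Marchf6, Shisa6, Fat1, Als2cl, Oxsr1, Cbx3, Cdk4, Raph1 and Gm13241. Mbd1, a reader of methylated DNA, had 1.01 in the HP1γ line (unadjusted p = 2.27e-12) and -0.03 in the HP1α line (unadjusted p = 0.638). Marchf6, a ubiquitin ligase of the endoplasmic reticulum, had -0.90 and -0.08 in the same order. Raph1, lamellipodin of the actin cytoskeleton, came nearest of these 10 to being shared, with -0.63 in the HP1γ line and -0.18 in the HP1α line (unadjusted p = 0.0822), where KO and WT samples also did not overlap. Cdk4, the cyclin D-dependent kinase, had -0.37 and -0.04. The difference between the lines itself had an adjusted p under 0.05 for 8 genes (0.0507% of all tested genes), 5 of them among the called genes (Mbd1, Marchf6, Shisa6, Als2cl and Oxsr1). Just outside the threshold was Plod2, a lysyl hydroxylase of collagen, which was lower in both lines (-0.80 and -0.87) with an adjusted p of 0.0641 on average.

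The lines were also read against each other in fits that share no sample, over the 14496 genes tested in both. In the HP1γ line alone 31 genes were higher (0.214%) and 11 lower (0.0759%) at an adjusted p under 0.05. Of the 31, 19 were also higher in the HP1α line, where 50.8% of all genes were higher, 4 of them with an unadjusted p under 0.05, which 1.61% of all genes reached in that direction. Of the 11, 8 were also lower there, as were 49.2% of all genes, 3 of them with an unadjusted p under 0.05, against 2.59% of all genes. The HP1α line alone called 0 genes in edgeR, where 233 were higher and 376 lower at an unadjusted p under 0.05. Of the 100 genes with the smallest p that were higher in the HP1α line, 54 were higher in the HP1γ line, as were 49.5% of all genes. An unadjusted p under 0.05 there was reached by 17 of them, against 6.06% of all genes. Of the 100 that were lower, 47 were lower in the HP1γ line, as were 50.5% of all genes. Of these, 9 had an unadjusted p under 0.05, against 5.66%.

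Most lists of related genes held no called gene. Of 51 lists, which cover chromatin regulators, T cell programmes, housekeeping functions and other cell types, 46 held 0 called genes. Only 0.241% of all tested genes were called, so that 0 called in a short list, here and below, says little about its genes. Apart from the chromosome 12 genes, called members were found in 4 lists. They were Cbx3 among the 3 HP1 isoforms, Mbd1 among 19 genes of DNA methylation, and members of 2 lists that the study had drawn up in other samples, from conventional T cells of transplanted mice that had also received Treg. Of the study's 50 tested genes that were more open and higher in HP1α KO cells, 1 was called higher here, 1700030C10Rik, and 0 lower, against 0.165% and 0.0761% of all genes tested. Of the 138 such genes of HP1γ KO cells, 4 were called higher, 5730507C01Rik, 2410018L13Rik, Fat1 and Oxsr1, and 0 lower, against the same shares of all genes, and 2 of them were shared. The medians of these lists were 0.08 and -0.01 on average.

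Genes that write H3K9 methylation, partners of HP1 and Polycomb genes held no called member, where 0.241% of all tested genes were called. None of 12 H3K9 methyltransferases and cofactors was called, and their median log2 fold change was -0.00 in the HP1α line and 0.01 in the HP1γ line. The 4 with the smallest p were Wiz, Atf7ip, Ehmt1 and Suv39h2, of which Wiz, a zinc finger partner of the G9a and GLP methyltransferases, had 0.10 on average (adjusted p = 0.639). The 24 genes of the HUSH complex, MORC proteins and other HP1 partners had a median of -0.01 and 0 called, and the 34 Polycomb genes 0.01 with 0 called. Scmh1, of the Polycomb group, had 0.39 on average (adjusted p = 0.149), and Zbtb38, like Mbd1 a reader of methylated DNA, -0.23 (adjusted p = 0.161).

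T cell programmes moved little. Medians were -0.04 over 20 effector cytokines, -0.09 over 26 inhibitory receptors and exhaustion regulators, -0.02 over 26 helper lineage transcription factors, 0.06 over 23 genes of quiescence and central memory, and 0.00 over 20 Treg genes, with 0 called in each. Of all tested genes 0.241% were called. Il4 had -0.57 on average (adjusted p = 0.335), Csf2 -0.67 (adjusted p = 0.477) and Il2 0.35 (adjusted p = 0.504). Among surface receptors, Cd5 and Cd6, related inhibitory receptors of T cell receptor signalling, had 0.16 and 0.16 with nearly the same values in both lines (adjusted p = 0.138 and 0.169). Ccr2, a receptor for inflammatory chemokines, had -0.47 (adjusted p = 0.202). Over 18 NK receptors and innate-like T cell genes the median was -0.01 in the HP1α line and -0.45 in the HP1γ line. Of 61 interferon-stimulated genes, 33 were negative and 7 positive in both lines, with a median of -0.10 and 0 called.

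Cell cycle genes had the most uniform direction among the T cell lists. Of 50 genes, 44 were negative and 1 positive in both lines, against 25.4% and 24.8% of all tested genes, and the median was -0.26 in the HP1α line and -0.17 in the HP1γ line. An unadjusted p under 0.05 was reached by 16 lower and 0 higher, while 4.61% of all genes were lower and 4.27% higher at that level, and 0 of the 50 were called. The members with the smallest p were Tpx2 (-0.43), Birc5 (-0.45), Bub1 (-0.51) and Stmn1 (-0.39), with adjusted p-values of 0.333, 0.336, 0.386 and 0.387. The first 3 act in the mitotic spindle and its checkpoint, and the fourth binds tubulin. The summed level of the list was 1920, 1678, 2008 and 2139 CPM in HP1α KO, 2103, 2237, 2540 and 1822 CPM in WT, 1868, 2012, 1995 and 2021 CPM in HP1γ KO and 2092, 2481, 1988 and 2003 CPM in WT. KO and WT samples overlapped in both lines. Cycling genes move together from sample to sample, so that the count of 44 is not 44 separate observations. Fewer dividing cells and less RNA of these genes per cell cannot be told apart in bulk samples.

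Mitochondrially encoded genes were negative in both lines for 11 of 13, with a median of -0.38 in the HP1α line, -0.09 in the HP1γ line and 0 called. Those with the smallest p were mt-Atp8, mt-Co3, mt-Nd4l and mt-Nd2, and mt-Co3 had -0.33 on average (adjusted p = 0.519). The share of counts in these genes was 1.62% to 2.60% in KO and 1.74% to 2.81% in WT (exact permutation test, p = 0.165). Nuclear genes of oxidative phosphorylation (71 tested, 0 called) had no common direction between lines, with medians of 0.03 in the HP1α line and -0.16 in the HP1γ line.

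Markers of B cells, myeloid cells and neutrophils leaned towards KO in both lines, and their part in the results above was not tested. Of 27 B cell and MHC class II genes, 24 were positive and 0 negative in both lines, with a median of 0.43 on average and 0 called. Cd22 had 0.26 (adjusted p = 0.437) and Cd79b 0.36 (adjusted p = 0.519). Their summed level was 731, 732, 1583 and 1417 CPM in HP1α KO, 676, 570, 1061 and 886 CPM in WT, 942, 847, 731 and 1341 CPM in HP1γ KO and 941, 1037, 628 and 541 CPM in WT. KO and WT overlapped in both lines (exact permutation test, which does not use sample numbers, p = 0.121). By number, each HP1α KO sample was above the WT sample of the same number, as was each HP1γ KO sample except the second. Myeloid and dendritic genes were positive in both lines for 17 of 21 (median 0.27, summed level 173 to 576 CPM in KO and 150 to 338 CPM in WT, p = 0.16 in the same exact test), and the fourth HP1γ KO sample had the highest sum. Without that sample 6 of the shared rule's genes were higher and 3 lower, against 13 and 6. Other samples had a similar weight. Of the 19 shared genes 8 were again shared without it, and 8 without HP1α KO 1, HP1α KO 3 or HP1γ KO 2. The fewest were 7 without HP1α KO 2 and the most 13 without HP1α WT 4. Neutrophil genes were positive in both lines for 7 of 7, with a median of 1.60 on average that rests on low counts. S100a8 and S100a9 were at 0 in some samples of each genotype and Ly6g, which defines neutrophils, did not exceed 0.225 CPM. The summed neutrophil level was 42.2 to 108 CPM in KO and 38.3 to 68.8 CPM in WT (exact permutation test, p = 0.0727). Plasma cell genes were positive in both lines for 7 of 10, with a summed level of 295 to 698 CPM in KO and 251 to 616 CPM in WT (exact permutation test, p = 0.0461). Over the 10 marker lists whose sums were compared, the smallest adjusted p was 0.314 by the same exact tests. Erythroid and platelet genes had medians of opposite sign in the lines (-0.63 and 1.47) and a summed level of 38.6 to 1217 CPM in KO and 19.2 to 549 CPM in WT.

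**Figure D4:**
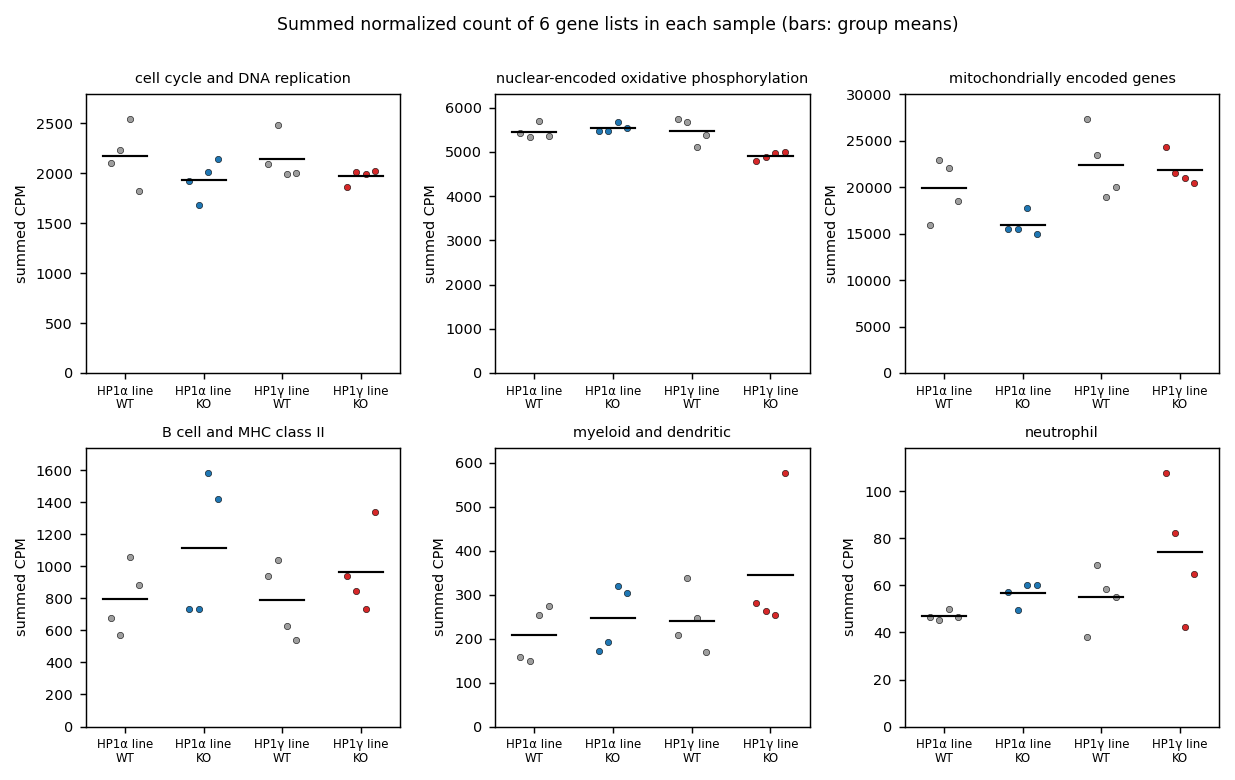
Summed CPM of 6 gene lists in each of the 16 samples (vertical axes from 0), with WT samples in grey, HP1α KO in blue and HP1γ KO in red, and bars for group means. KO means are below WT means in both lines for cell cycle and mitochondrially encoded genes and above them for B cell, myeloid and neutrophil genes, and in each panel KO and WT samples overlap in at least 1 line.

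**Figure D5:**
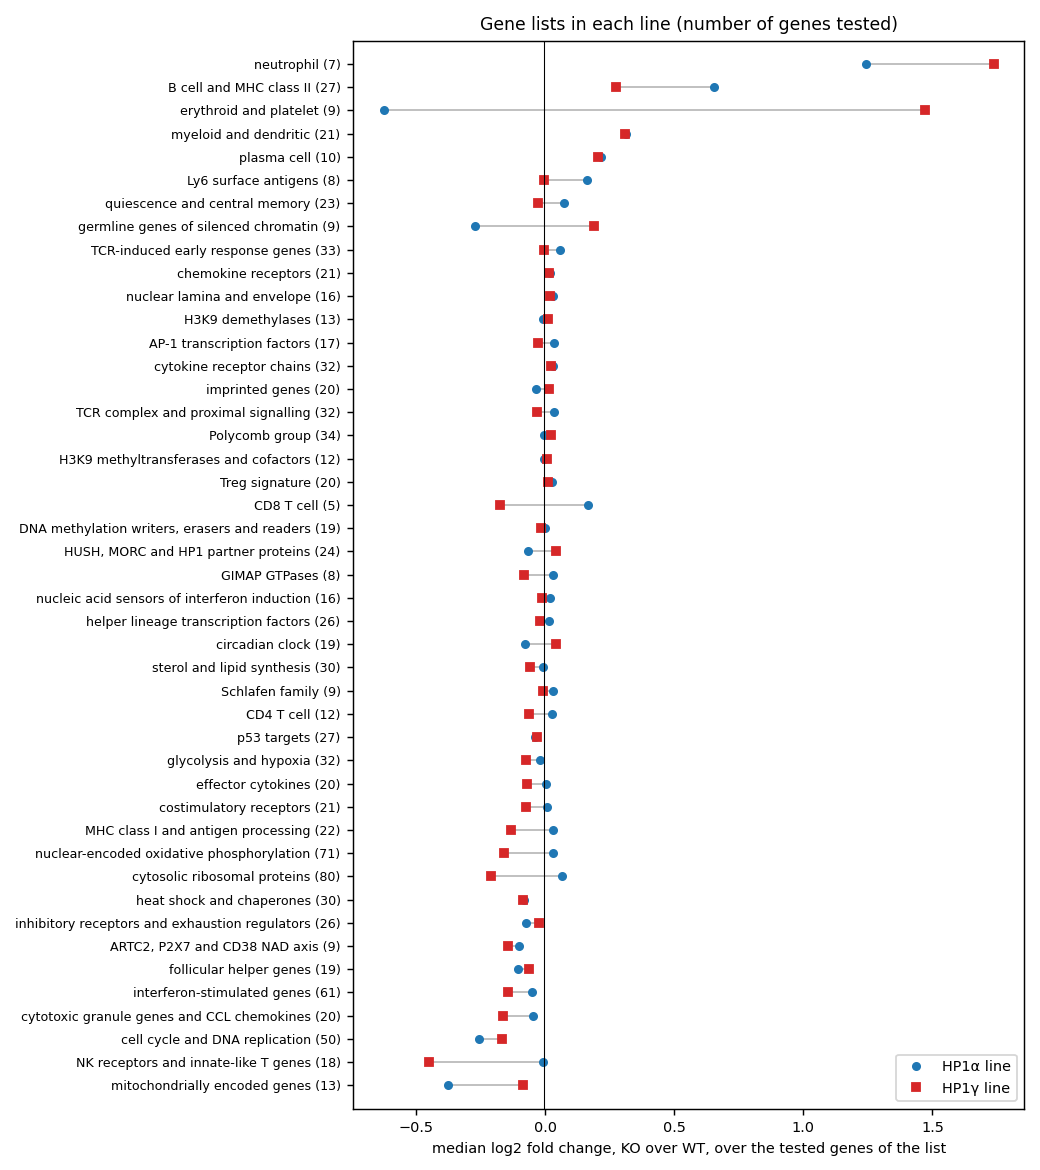
Median log2 fold change of KO over WT in the HP1α line (blue circles) and in the HP1γ line (red squares) for each list with at least 5 tested genes, with the number of genes in brackets and a vertical line at the median of all genes tested. The medians of most lists are close to 0 in both lines, and those of B cell, myeloid and neutrophil genes are above 0 and those of cell cycle genes below 0 in both.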

How the data were processed

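RNA-Seq was performed on sorted splenic memory CD4+ T cells of 16 samples, as described with the groups above. The authors trimmed the reads and quantified them with STAR and Salmon on GRCm39 with Ensembl genes, and deposited estimated counts per gene. A second deposited table holds TPM, which the authors computed with the same tools and which has the same total in each sample. Of the estimated counts, 11.6% were not whole, and all were rounded. Total counts of 26694002 to 40199600 per sample set the counting error. No sample was left out, and within groups each pair of samples differed by more than sampling noise. One label and the series text describe transferred cells and were not used, since they do not match the other labels of these samples.

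Genes were kept with filterByExpr (minimum count of 10), normalized by TMM, and fitted with edgeR's quasi-likelihood model (version 4.0.16, R 4.3.3) on the 4 groups. The average effect was the mean of the KO minus WT contrasts of both lines, with Benjamini-Hochberg adjusted p under 0.05. DEG in the closing section are called genes with an absolute log2 fold change above 1. In a simulation with known changes the scripts were tested before use. Summed levels were compared by exact two-sided permutation within lines, over 4900 arrangements with a smallest p of 0.000408. Windows of 300 bases and transcripts were compared with blastn (version 2.17.0), and 56017 of 56748 genes were found in the annotation. The text names Cbx5, Cbx3 and Cbx1, the shared genes except 1 that is not reported here, the 10 further called genes with the smallest p, the 10 genes with the smallest larger p of both lines, and up to 4 members of each list with the smallest p. Adam17, Itgb1bp1, Ywhaq, 9030624G23Rik and the marker genes given as ranges were chosen after their values were seen. Members and lists were chosen with earlier results of these data known. Alternatives were DESeq2 (version 1.42.0), size factors (RLE), other filters, an additive model, replicate blocks, a robust fit, limma (version 3.58.1) on log2(TPM + 1) and log2(TPM + 0.1), gene classes left out, and each sample left out. The numbers of samples do not state a pairing. Deviations of same-numbered KO and WT samples of a line correlated positively throughout (0.0497 to 0.355), but not every number matched best with itself. Between the lines such correlations had both signs.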

Additional observations from a re-analysis of the deposited data

Results flagged for a closer look

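In 12 of 120 groups of 4 samples that were examined, 1 sample stood far from the other 3 by Dixon's criterion, which chance gives in about 5% of groups. The fourth HP1γ KO sample did so for 2410018L13Rik (7.06 CPM, the others 3.04 to 3.56), 1700030C10Rik (9.65 CPM, the others 2.46 to 3.5), Gm51802 (1.8 CPM, the others 0.715 to 0.817) and the summed myeloid and dendritic genes (576 CPM, the others 255 to 282). 2410018L13Rik stayed called with each of the 16 samples left out in turn, this one included. 1700030C10Rik and Gm51802 each stayed called in 2 of the 16 cases, with adjusted p-values of 0.00323 to 0.107 and of 0.0415 to 0.147, so that the loss of these calls was not particular to this sample (0.085 and 0.0924 without it).

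In the HP1α line, Gm5784 was high in the fourth WT sample (0.948 CPM, the others 0.184 to 0.313), Gm51802 was high in the third WT sample (0.294 CPM, the others 0.151 to 0.158), and H2bc9 was high in the fourth KO sample (0.592 CPM, the others 0.324 to 0.35). Each of these samples stood nearer to the other genotype, so that they made the difference smaller. The third WT sample also held the most erythroid and platelet RNA of that group (549 CPM in sum, the others 19.2 to 68.3).

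In the HP1γ line, the WT samples that stood apart were the first for Atp2a1 (2.98 CPM, the others 3.37 to 3.42) and the second for H2bc9 (0.79 CPM, the others 1.03 to 1.04). The second WT sample was also the deepest (40199600 counts, the others 32325493 to 33414655). The first HP1γ KO sample was low in summed cell cycle genes (1868 CPM, the others 1995 to 2021).

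Among called genes, 5 differed between the lines in edgeR's test of the difference with an adjusted p under 0.05. The log2 fold change in the HP1α line minus that in the HP1γ line was -1.04 for Mbd1 (adjusted p = 4.67e-06), 0.81 for Marchf6 (0.002), -2.03 for Shisa6 (0.00679), -0.79 for Als2cl (0.0274) and -0.82 for Oxsr1 (0.015). None of the 5 was shared.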

How the results depend on the processing

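No gene named by the rule changed direction on average under the alternatives tried, whereas the counts of called genes moved. The counts above were 26 genes higher and 12 lower on average, 17 and 2 of them DEG, and 13 and 6 shared. DESeq2 gave 82 and 50, with 28 and 9 DEG and 30 and 15 shared, and called 1 gene by the larger of both p-values. Requiring at least 10 counts in every sample left 14 higher, 5 and 0 DEG and 6 shared genes that were higher. The additive model, which takes one effect for both lines, gave 5 higher, all DEG, and 3 lower. limma on log2(TPM + 1) gave 13 and 5, with 5 DEG higher and 7 and 3 shared, and on log2(TPM + 0.1) 10 and 4, with 6 and 1 DEG and 5 and 2 shared. With predicted genes and pseudogenes left out there were 13 higher, 5 and 1 DEG, and 4 and 3 shared. With a replicate block by number over both lines there were 13 higher, 8 DEG higher and 7 shared genes that were higher, and with a block by line and number 9 DEG higher and 8 shared. Same-numbered KO and WT samples deviated together with correlations of 0.0847 to 0.355 in the HP1α line and 0.0497 to 0.170 in the HP1γ line, and 3 of 8 numbers matched best with themselves, so the numbers are not taken as pairs. Leaving out 1 sample gave 10 to 21 higher, 5 to 14 lower, 6 to 14 DEG higher, 2 to 3 DEG lower, 5 to 13 and 3 to 8 shared, and 0 to 1 gene by the larger p. The median of erythroid and platelet genes was 0.20 to 1.37 with 1 sample left out. Summed TPM in place of summed CPM turned the sign for Treg genes (42.7, p = 0.687), quiescence and central memory genes (235, p = 0.15) and NK receptors (1.67, p = 0.964, exact permutation tests), none of which passed the threshold. Of the 19 shared genes, DESeq2 again gave 18 as shared. The causes were not tested. Low counts limit the genes under 1 CPM, where the estimated fold change rests on few reads.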
